A study of Rattus norvegicus with 16 samples.

Results

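Replication-dependent histone genes are clustered genes, many of them without introns, whose products package newly copied DNA. In the deposited table they were taken as the rows whose symbol begins with Hist1h, Hist2h, Hist3h or Hist4h, and 35 of the 36351 rows did. By type these were 4 linker histone H1 genes, 13 H2A, 11 H2B, 3 H3 and 4 H4 genes. By cluster number in the symbol, 24 belonged to cluster 1, 7 to cluster 2 and 4 to cluster 3. At least 10 counts in at least 4 of the 16 libraries were found for 32 of them, namely 4 H1, 13 H2A, 10 H2B, 2 H3 and 3 H4 genes, and the same 32 entered the test. The 3 that did not were Hist1h2ba, Hist2h4a and Hist3h3.

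The study isolated glomeruli, the filtering units of the kidney, of rats 11 days after nephrotic syndrome was induced and sequenced their RNA. Each of 4 groups had 4 rats. PAN+Pio rats were given puromycin aminonucleoside (PAN), an agent toxic to podocytes, and then pioglitazone, which activates PPAR gamma, a nuclear receptor. PAN+MP rats were given PAN and then methylprednisolone, a glucocorticoid. PAN rats were given PAN with vehicle by mouth, and Sham rats were healthy controls that were also given vehicle by mouth. PAN was injected once into a tail vein at 50 mg/kg on day 0, methylprednisolone was injected intraperitoneally at 15 mg/kg each day, and pioglitazone was given by mouth at 10 mg/kg each day. The route of the vehicle thus matched pioglitazone and not methylprednisolone. The labels give no age, sex or strain. The stated interest of the study was in disease changes of expression that both drugs lessen.

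Messenger RNAs of these genes differ from nearly all others in animal cells in that they end in a stem-loop instead of a poly(A) tail. The stem-loop is bound by Slbp, transcription depends on the nuclear factor Npat, and the RNAs build up in S phase and are degraded when DNA synthesis stops. The libraries were made from total RNA after removal of ribosomal and globin RNA, not by capture of poly(A) tails, so that RNAs without a tail could be counted. Many histone genes are near-identical copies. How reads that match several copies were counted is not given in the sources used here, so the value of a single copy is less certain than the pattern over a type. In bulk tissue, fewer cells with a transcript and less of it per cell cannot be told apart.

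Libraries held 22802109 to 32571877 counted reads, and 9063 to 31201 of these fell on the 35 histone genes. That was 0.0409% to 0.0559% of a PAN+Pio library, 0.0392% to 0.0425% of a PAN+MP library and 0.0840% to 0.109% of a PAN library, against 0.0398% to 0.0446% of a Sham library. Levels below are CPM, counts scaled to a common library total by the TMM method, and they compare libraries for 1 gene, not genes with one another, since no transcript lengths were at hand. Libraries are numbered within a group by the order of their columns, which is a name only. The column names of PAN carry the word high, whose meaning is not given, and Sham library 2 and PAN+Pio library 3 carry an extra tag. Each edgeR p-value tests a difference between 2 groups against the spread between rats within groups, estimated over all 4 groups. Of the podocyte markers, Nphs1, which encodes nephrin of the slit diaphragm, averaged 3027 ± 217 CPM in PAN+Pio, 3011 ± 199 in PAN+MP, 2057 ± 441 in PAN and 2497 ± 606 in Sham (SD, n = 4 each). Wt1, a transcription factor of podocytes, averaged 462 ± 35.6 CPM in PAN+Pio, 453 ± 39.0 in PAN+MP, 374 ± 36.7 in PAN and 435 ± 137 in Sham, so that markers of the labelled tissue were measured in every group. PAN library 2 and Sham library 3 had the lowest sums of 8 proximal tubule markers in their groups, at 1728 and 2563 CPM. Counts without these 2 libraries are given below as an alternative chosen after seeing the data.

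Promoter windows were examined because members of the same cluster often share them: a few H2A and H2B genes start back to back and are read outward from the same stretch of DNA. Of the 35 genes, 27 matched 1 RefSeq gene, 6 matched several and 2 matched none, and 25 had a promoter window of 250 bases before to 50 bases after the start in RefSeq's rat assembly GRCr8. The counts were made on Rnor_6.0, so the coordinates here belong to GRCr8 only. Shown first are the bases between the starts of Hist2h2ac and Hist2h2be (chr2:186469227-186469451, plus strand, 225 bases), an H2A and an H2B gene with different results below. Next are the bases between the starts of Hist3h2bb and Hist3h2a (chr10:44233066-44233282, plus strand, 217 bases), which both rose in PAN. Last are the 150 bases before the start of the linker histone gene Hist1h1b (chr17:47421725-47421874, plus strand), which holds the AAACACA element found in several H1 promoters. Capitals mark the motif CCAAT, the TATA box searched as TATAAA, the octamer ATTTGCAT and the H1 element AAACACA, each on either strand. Matches of the TATA box on the 2 strands can overlap.
Hist2h2ac and Hist2h2be: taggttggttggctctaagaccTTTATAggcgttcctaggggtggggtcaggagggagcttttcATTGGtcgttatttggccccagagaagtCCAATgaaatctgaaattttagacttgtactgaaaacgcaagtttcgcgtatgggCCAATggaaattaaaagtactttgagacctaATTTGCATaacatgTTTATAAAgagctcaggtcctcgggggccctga
Hist3h2bb and Hist3h2a: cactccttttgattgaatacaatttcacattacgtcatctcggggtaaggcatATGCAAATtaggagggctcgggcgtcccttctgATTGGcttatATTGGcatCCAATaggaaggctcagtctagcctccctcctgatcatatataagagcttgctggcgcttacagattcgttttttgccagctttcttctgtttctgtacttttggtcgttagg
Hist1h1b: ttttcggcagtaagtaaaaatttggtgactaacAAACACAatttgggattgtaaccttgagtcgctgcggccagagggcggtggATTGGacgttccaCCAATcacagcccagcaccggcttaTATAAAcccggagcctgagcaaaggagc

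CCAAT, searched on both strands, was in 24 of the 25 histone windows (96.0%), against 37.5% of all 33469 RefSeq promoter windows of the same length. TATAAA was in 16 (64.0%), against 14.2% of all windows. The octamer ATTTGCAT, a binding element of POU factors such as Pou2f1, was in 11 (44.0%), against 1.78% of all, and these 11 were 6 H2A and 5 H2B genes. AAACACA was in 5 (20%), against 6.99% of all, and in 2 of the 3 H1 windows. The windows of genes that start back to back overlap, so that such a pair shares the same letters. Among windows of genes that rose in PAN against Sham, 7 of 19 held the octamer, and among those tested that did not pass, 3 of 4 did. These matches describe the letters in the windows and are not shown to be bound sites.

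In PAN glomeruli against Sham, 26 of the 32 tested histone genes rose and none fell, by edgeR's quasi-likelihood test at an adjusted p under 0.05. Of all 17061 genes tested, 10.4% rose and 8.52% fell. At an unadjusted p under 0.05, 27 histone genes were higher and 0 lower, and DESeq2 called 26 higher and 0 lower. The median log2 fold change was 1.72 over the 32 genes and 0.01 over all tested genes. Every type had members that rose: 3 of 4 H1 genes, 11 of 13 H2A, 8 of 10 H2B, both H3 and 2 of 3 H4 genes rose. For 25 genes all 4 PAN libraries lay above all 4 Sham libraries, as they did for 11.2% of all tested genes. With 1 library left out at a time, 24 to 27 genes were called.

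Both drugs went with lower histone transcripts than in PAN. In PAN+MP against PAN, 27 of 32 fell and none rose, while 5.31% of all tested genes fell and 3.31% rose. The median log2 fold change was -2.36 over the 32 genes and 0.00 over all, and for 26 genes all PAN+MP libraries lay below all PAN libraries, against 8.62% of all tested genes. For 0 genes they all lay above, against 7.15%. In PAN+Pio against PAN, 24 of 32 fell and none rose, while 2.85% of all tested genes fell and 0.832% rose. The median was -1.32, and for 26 genes all PAN+Pio libraries lay below all PAN libraries, against 6.42% of all tested genes. For 0 genes they all lay above, against 4.27%. By type, methylprednisolone went with falls in 3 of 4 H1, 12 of 13 H2A, 8 of 10 H2B, 2 of 2 H3 and 2 of 3 H4 genes, and pioglitazone with falls in 3 H1, 10 H2A, 7 H2B, 2 H3 and 2 H4 genes. In neither comparison was a histone gene higher at an unadjusted p under 0.05 or by DESeq2, which called 27 and 26 lower. Leaving out 1 library at a time gave 26 to 27 calls with methylprednisolone and 21 to 24 with pioglitazone. The PAN libraries are shared by these comparisons and by PAN against Sham, so the 3 sets of values are not independent. With that in mind, the 26 genes that rose in PAN all fell in PAN+MP, and 24 of them fell in PAN+Pio. The other two, Hist2h2ab and Hist3h2bb, had log2 fold changes of -1.11 ± 0.31 (adjusted p = 0.0584) and -1.37 ± 0.37 (adjusted p = 0.0534) with pioglitazone in the edgeR fit. In the authors' deposited table, 27 members were called higher in PAN against Sham, 27 lower in PAN+MP against PAN and 25 lower in PAN+Pio against PAN. The share of all genes called by the authors' own test was not computed, so these 3 counts have no background beside them.

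Summed over the 35 genes, histone reads came to 552, 404, 497 and 565 CPM in PAN+Pio, 418, 392, 392 and 402 in PAN+MP, 865, 1080.0, 1076 and 845 in PAN and 399, 468, 422 and 428 in Sham. All PAN sums lay above those of every other library, and the mean was 2.25 times that of Sham. Without Hist1h2bh, a single H2B gene that takes up many of the reads and is described below, the PAN mean was 2.71 times the Sham mean. The sums carry no test. By type, the PAN mean was 2.06 times the Sham mean for H1, 2.86 times for H2A, 1.55 times for H2B, 4.43 times for H3 and 2.44 times for H4. The PAN+MP mean was lower than the PAN mean by factors of 2.35 for H1, 3.52 for H2A, 1.42 for H2B, 6.35 for H3 and 2.75 for H4. The PAN+Pio mean was lower than the PAN mean by factors of 1.89 for H1, 2.18 for H2A, 1.46 for H2B, 3.22 for H3 and 1.92 for H4. In each type the 4 PAN sums lay above the 4 Sham sums and above all drug-treated sums.

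**Figure D1:**
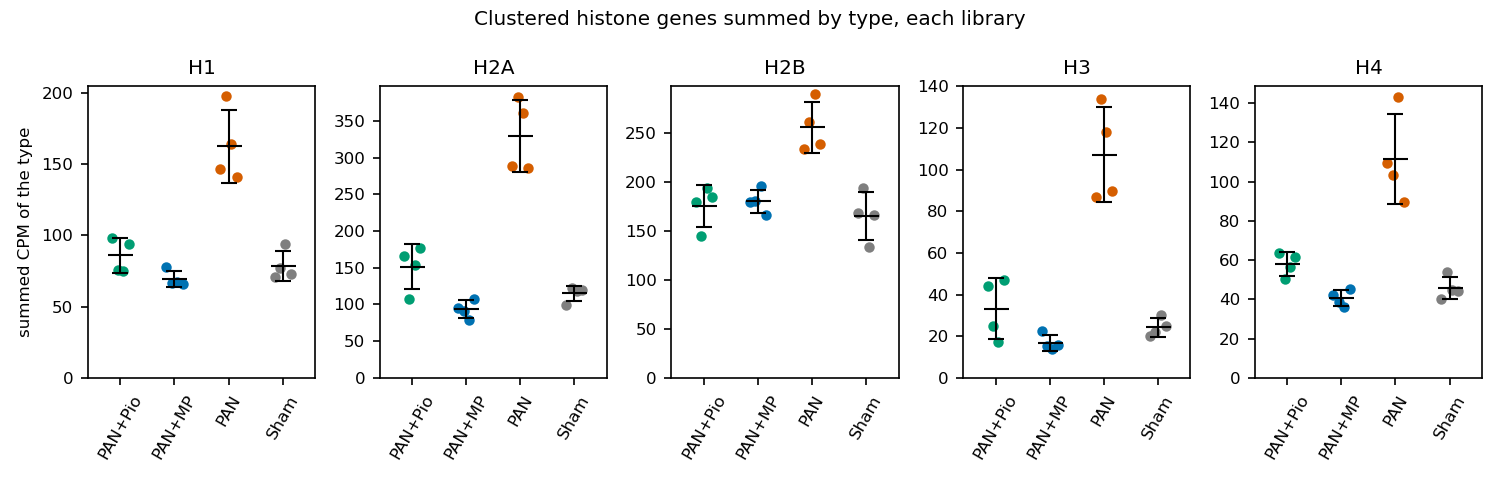
Summed CPM of the histone genes of each type (vertical axes, each from 0) in the 4 libraries of PAN+Pio, PAN+MP, PAN and Sham; points are libraries, long bars the mean and short bars 1 SD. The PAN libraries sit apart in every type, from 86.8 to 134 CPM for H3 against 19.9 to 30.4 CPM in Sham, to 286 to 382 CPM for H2A against 99.0 to 122 CPM in Sham.

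Among the linker histones, which sit where DNA enters and leaves the nucleosome, Hist1h1a and Hist1h1b moved most. Hist1h1a had 12.5, 5.83, 9.46 and 12.9 CPM in PAN+Pio, 6.34, 2.83, 3.68 and 3.201 in PAN+MP, 28.6, 38.3, 34.2 and 25.1 in PAN and 4.05, 4.998, 12.0 and 7.37 in Sham. The PAN libraries were all above the rest, and Sham library 3 was the highest of its group. Hist1h1a was 4.42 times as high in PAN as in Sham (log2 fold change 2.14 ± 0.33, SE, edgeR adjusted p = 3.93e-04) and fell in both drug groups, with a log2 fold change of -2.98 ± 0.35 in PAN+MP over PAN (adjusted p = 3.52e-05) and of -1.63 ± 0.33 in PAN+Pio over PAN (adjusted p = 0.0108).
Hist1h1b, whose promoter is shown above, had 9.14, 4.33, 5.26 and 10.9 CPM in PAN+Pio, 5.0, 2.43, 3.11 and 4.41 in PAN+MP, 24.9, 35.3, 28.2 and 19.96 in PAN and 5.55, 5.13, 11.0 and 5.69 in Sham. Again no other library reached the lowest PAN library. The log2 fold changes were 1.98 ± 0.32 in PAN over Sham, -2.86 ± 0.33 in PAN+MP over PAN and -1.87 ± 0.32 in PAN+Pio over PAN, all called by edgeR.
Hist1h1d held the most reads of the H1 genes and changed least among those called. It had 76.2, 64.3, 59.6 and 69.3 CPM in PAN+Pio, 65.3, 59.95, 59.4 and 56.8 in PAN+MP, 92.0, 124, 101 and 94.7 in PAN and 60.1, 65.8, 70.0 and 59.0 in Sham. All PAN libraries lay above all others, and the other groups overlapped. Its log2 fold change was 0.69 ± 0.10 in PAN over Sham (edgeR adjusted p = 2.23e-04), -0.77 ± 0.10 in PAN+MP over PAN and -0.61 ± 0.10 in PAN+Pio over PAN. Reads of Hist1h1d made up 61.6% to 67.3% of H1 reads in PAN, against 74.5% to 85.7% in Sham. Hist1h1t, a linker histone of the testis, stayed between 0.483 and 1.36 CPM in all libraries and was not called in any comparison (log2 fold change -0.34 ± 0.32 in PAN over Sham).

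H2A, which pairs with H2B in the nucleosome core, had the most genes. Hist1h2ac gave the steepest rise in PAN among the 32. It had 5.32, 2.26, 4.57 and 5.45 CPM in PAN+Pio and 2.35, 1.18, 1.01 and 1.58 CPM in PAN+MP. In PAN it had 12.9, 15.7, 13.8 and 11.4 CPM, against 2.33, 1.42, 3.02 and 1.64 CPM in Sham. The lowest PAN library was over the highest of any other group, and PAN+Pio libraries 1, 3 and 4 were above every Sham library. The fold change of PAN over Sham was 6.37 (log2 2.67 ± 0.31, edgeR adjusted p = 4.02e-05), and the log2 fold changes with the drugs were -3.14 ± 0.31 for PAN+MP over PAN and -1.61 ± 0.29 for PAN+Pio over PAN.
Hist1h2ak had 11.0, 5.41, 12.7 and 13.2 CPM in PAN+Pio, 3.77, 1.34, 2.22 and 2.98 in PAN+MP, 26.1, 32.3, 34.5 and 23.0 in PAN and 4.75, 4.42, 7.30 and 5.73 in Sham. PAN+MP was the lowest group, with no library reaching the lowest of Sham or PAN+Pio. On the log2 scale the fold changes were 2.38 ± 0.30 in PAN over Sham, -3.50 ± 0.31 in PAN+MP over PAN and -1.45 ± 0.29 in PAN+Pio over PAN.
Hist1h2ai had 13.5, 5.14, 16.5 and 14.9 CPM in PAN+Pio, 5.33, 3.42, 3.202 and 4.63 in PAN+MP, 32.1, 42.3, 38.1 and 28.1 in PAN and 5.86, 6.59, 11.3 and 8.54 in Sham. PAN+Pio library 2 lay below every Sham library, while the other PAN+Pio libraries lay above all of them, and PAN was above all others. In the edgeR fit the log2 fold changes were 2.12 ± 0.30 in PAN over Sham, -3.09 ± 0.31 in PAN+MP over PAN and -1.49 ± 0.29 in PAN+Pio over PAN, each called.
Hist1h2ao held the most reads of the H2A genes. It had 57.5, 41.8, 45.2 and 64.4 CPM in PAN+Pio, 36.7, 32.1, 27.1 and 48.4 in PAN+MP, 91.6, 111, 112 and 89.6 in PAN and 30.6, 43.2, 37.6 and 39.7 in Sham. PAN stood apart, and the other groups overlapped. The fitted log2 fold changes came to 1.42 ± 0.17 in PAN over Sham (edgeR adjusted p = 6.51e-05), -1.48 ± 0.17 in PAN+MP over PAN and -0.95 ± 0.17 in PAN+Pio over PAN.

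Of the other H2A genes, Hist1h2ah, Hist1h2ail, Hist1h2an, Hist2h2ab, Hist2h2ac, Hist2h2aa3 and Hist3h2a rose in PAN against Sham, with log2 fold changes between 0.93 for Hist3h2a and 1.90 for Hist1h2ail. All 7 fell in PAN+MP against PAN, and all but Hist2h2ab fell in PAN+Pio against PAN. Hist2h2aa3 was the least steady. It had 4.57, 3.18, 2.73 and 4.01 CPM in PAN+Pio, 3.297, 10.1, 3.39 and 4.10 in PAN+MP, 6.59, 36.5, 37.1 and 22.5 in PAN and 4.05, 13.6, 2.91 and 10.5 in Sham. PAN library 1 lay within the wide Sham range, and all PAN+Pio libraries lay below all PAN libraries. Its rise in PAN had a log2 fold change of 1.73 ± 0.53 (edgeR adjusted p = 0.0341), which was over 0.05 in 7 of 23 alternatives, with a range of 0.00949 to 0.131. Leaving out PAN library 2, 3 or 4 or Sham library 1 or 3 each ended that call, as did fitting the 2 groups alone or leaving out PAN library 2 with Sham library 3. Some of the 23 alternatives here and below left out only a library of a group outside the comparison, so that both compared groups stayed whole. With pioglitazone Hist2h2aa3 had the largest fall of the 32, -2.82 ± 0.56 on the log2 scale (adjusted p = 0.0106). With methylprednisolone its log2 fold change was -2.29 ± 0.54 (edgeR adjusted p = 0.0143), which reached 0.0550 without PAN+MP library 3. Hist1h2aa, a testis variant of H2A, had 0.0634 to 1.66 CPM over the libraries and fell in PAN+MP against PAN alone among the comparisons (log2 fold change -2.04 ± 0.48, adjusted p = 0.0136). Its value in PAN over Sham was 1.17 ± 0.46 (adjusted p = 0.0863). Hist1h2af stayed at or below 0.925 CPM in every library and was not called.

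**Figure D2:**
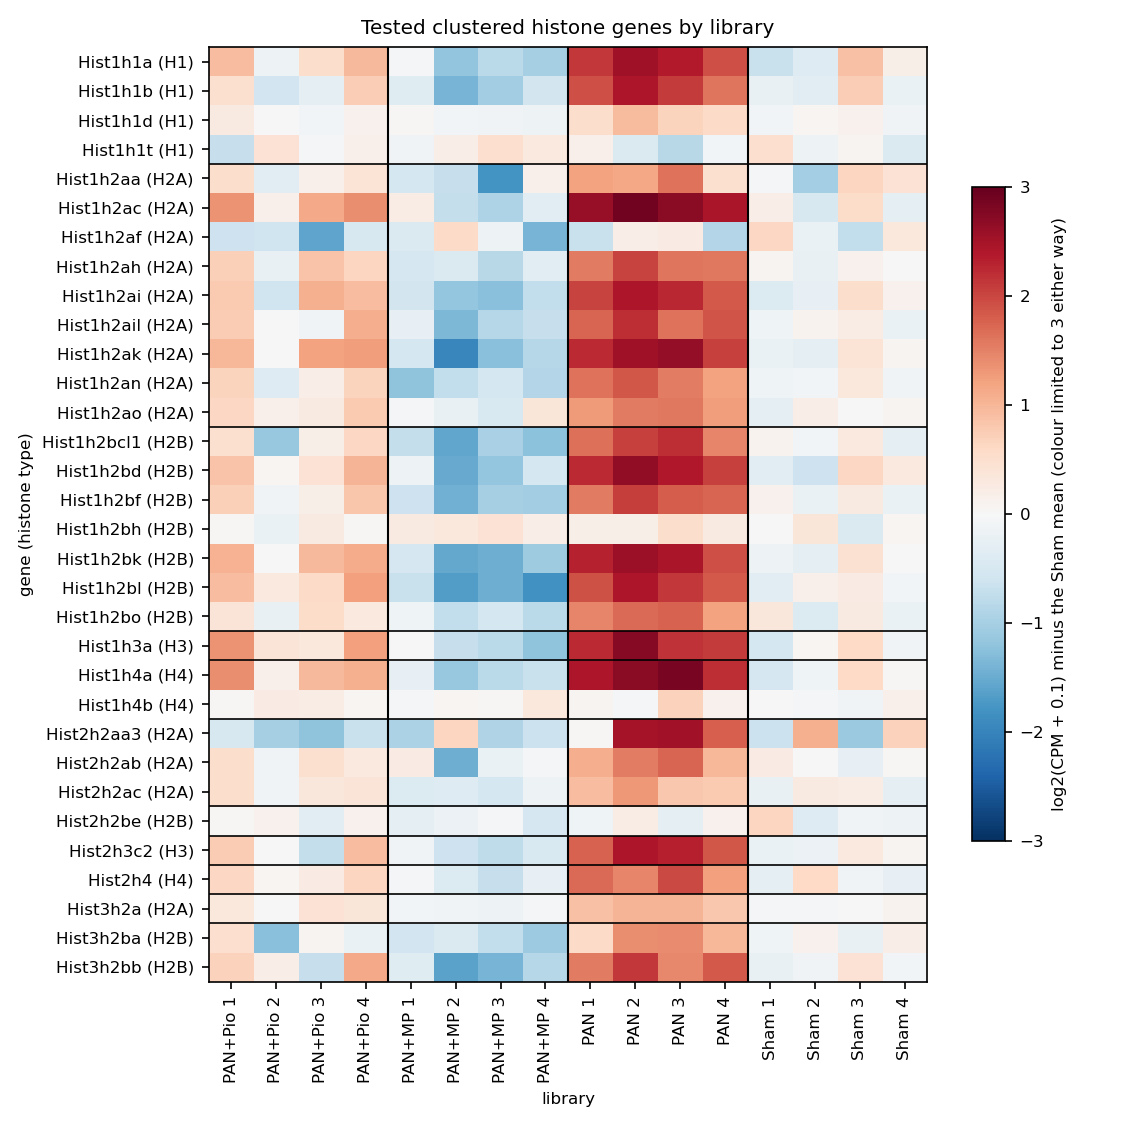
Heat map of the 32 tested histone genes (rows, grouped by cluster number and type) in the 16 libraries (columns, PAN+Pio, PAN+MP, PAN and Sham); colour is log2(CPM + 0.1) minus the mean of Sham, limited to 3 either way. The PAN columns are red for most rows, the PAN+MP columns mostly pale blue, and Hist1h2bh, Hist1h4b, Hist2h2be, Hist1h1t and Hist1h2af have no such block.

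H2B genes split into 8 that rose in PAN against Sham and Hist1h2bh and Hist2h2be, which did not pass. Hist1h2bk had 12.1, 5.83, 11.49 and 12.6 CPM in PAN+Pio, 4.02, 1.93, 2.03 and 2.70 in PAN+MP, 29.0, 34.7, 32.1 and 22.5 in PAN and 5.24, 4.69, 7.94 and 5.77 in Sham. PAN was above every other library, PAN+MP below every Sham library, and PAN+Pio library 2 lay within the Sham range. Its log2 fold changes were 2.32 ± 0.26 in PAN over Sham (edgeR adjusted p = 3.81e-05), -3.47 ± 0.28 in PAN+MP over PAN and -1.49 ± 0.26 in PAN+Pio over PAN.
Hist1h2bl had 3.90, 2.49, 3.06 and 4.88 CPM in PAN+Pio, 1.23, 0.560, 0.666 and 0.497 in PAN+MP, 7.88, 11.2, 9.18 and 7.54 in PAN and 1.58, 2.26, 2.42 and 1.91 in Sham. All PAN+Pio libraries lay above all Sham libraries and all PAN+MP libraries below them. It had the largest fall with methylprednisolone of the 32 genes, -3.61 ± 0.29 on the log2 scale in PAN+MP over PAN (edgeR adjusted p = 5.12e-06), beside 2.13 ± 0.26 in PAN over Sham and -1.32 ± 0.25 in PAN+Pio over PAN.
Hist1h2bd had 3.49, 1.96, 2.57 and 3.94 CPM in PAN+Pio, 1.67, 0.591, 0.792 and 1.27 in PAN+MP, 9.17, 12.5, 10.3 and 8.08 in PAN and 1.497, 1.19, 2.94 and 2.34 in Sham. The PAN libraries were again above all others, and PAN+MP and Sham overlapped. The log2 fold changes were 2.32 ± 0.32 in PAN over Sham, -3.22 ± 0.34 in PAN+MP over PAN and -1.74 ± 0.31 in PAN+Pio over PAN. Hist1h2bcl1 had 5.94, 1.88, 4.81 and 6.55 CPM in PAN+Pio, 2.54, 1.37, 2.12 and 1.74 in PAN+MP, 13.6, 17.8, 20.2 and 11.9 in PAN and 4.58, 3.98, 5.18 and 3.43 in Sham. All PAN libraries were above all others, all PAN+MP libraries were below all Sham libraries, and PAN+Pio library 2 lay within the PAN+MP range. The log2 fold changes were 1.88 ± 0.30 in PAN over Sham (edgeR adjusted p = 4.96e-04), -3.03 ± 0.32 in PAN+MP over PAN (adjusted p = 1.60e-05) and -1.73 ± 0.30 in PAN+Pio over PAN (adjusted p = 0.00532). Hist1h2bf and Hist1h2bo rose in PAN by 1.82 and 1.59 on the log2 scale and fell in both drug groups against PAN. Hist3h2ba and Hist3h2bb rose by 1.20 and 1.89. Hist3h2ba had an adjusted p of 0.0175 with a range of 0.00341 to 0.0805 over 23 alternatives in the edgeR and DESeq2 fits, and the call ended when PAN library 3 or Sham library 1 was dropped, or PAN library 2 and Sham library 3 together. Its fall in PAN+Pio against PAN (-1.31 ± 0.33, adjusted p = 0.0338) was over 0.05 in 8 of the 23 alternatives, with a highest value of 0.107, among them leaving out PAN library 2 or 3 or PAN+Pio library 2, 3 or 4.

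Hist1h2bh alone took 23.5% to 31.3% of all histone reads in PAN+Pio, 37.0% to 44.4% in PAN+MP and 13.6% to 18.5% in PAN, against 22.8% to 35.5% in Sham. It had 131, 113, 155 and 132 CPM in PAN+Pio, 156, 162, 174 and 149 in PAN+MP, 145, 147, 187 and 156 in PAN and 128, 166, 96.3 and 136 in Sham. Each pair of groups overlapped. On the log2 scale the fold changes were 0.27 ± 0.14 in PAN over Sham (edgeR adjusted p = 0.179), 0.01 ± 0.14 in PAN+MP over PAN (adjusted p = 0.981) and -0.26 ± 0.14 in PAN+Pio over PAN (adjusted p = 0.4). Over 23 alternatives the adjusted p of the first ranged from 0.0366 to 0.511, and it passed in 2, without Sham library 2 and without both tagged libraries. Since Hist1h2bh held 56.0% to 65.3% of H2B reads in PAN, against 71.7% to 85.8% in Sham, it made up most of the summed H2B level. Without it the H2B sum was 48.7, 31.7, 39.3 and 52.0 CPM in PAN+Pio, 24.5, 18.8, 21.7 and 18.4 in PAN+MP, 88.6, 115, 103 and 82.9 in PAN and 40.1, 27.5, 38.0 and 30.8 in Sham. Then the PAN mean was 2.86 times the Sham mean, against 1.55 times with it, and the PAN+MP sums all lay below the Sham sums.
Hist2h2be, which in mouse is known as an H2B variant of olfactory neurons, had 13.7, 14.5, 10.6 and 14.5 CPM in PAN+Pio, 10.8, 11.7, 13.0 and 9.32 in PAN+MP, 12.1, 15.3, 11.0 and 14.5 in PAN and 20.7, 10.1, 12.3 and 11.9 in Sham. All groups overlapped, and its log2 fold change in PAN over Sham was -0.05 ± 0.20. Hist2h2ac, the H2A gene that starts 225 bases away in the opposite direction, had 10.3, 6.48, 8.97 and 9.24 CPM in PAN+Pio, 5.29, 5.32, 4.85 and 6.31 in PAN+MP, 13.6, 17.4, 12.5 and 12.2 in PAN and 6.03, 8.49, 8.24 and 5.81 in Sham. There the PAN libraries were above all others, with log2 fold changes of 0.96 ± 0.17 in PAN over Sham (edgeR adjusted p = 0.00118) and -1.35 ± 0.17 in PAN+MP over PAN. In PAN+Pio over PAN the value was -0.67 ± 0.17 (adjusted p = 0.0395), over 0.05 in 12 of 23 alternatives with a highest value of 0.142, among them leaving out PAN library 1, 2 or 3 or PAN+Pio library 2, 3 or 4.
Both genes of the pair in the third cluster rose in PAN. Hist3h2bb had 0.997, 0.691, 0.326 and 1.40 CPM in PAN+Pio, 0.435, 0.124, 0.159 and 0.280 in PAN+MP, 1.93, 2.85, 1.76 and 2.36 in PAN and 0.484, 0.531, 0.820 and 0.546 in Sham. Hist3h2a, 217 bases away, had 35.7, 28.4, 38.9 and 37.2 CPM in PAN+Pio, 27.1, 26.9, 25.9 and 27.9 in PAN+MP, 52.9, 58.2, 58.6 and 50.1 in PAN and 27.6, 28.2, 28.3 and 30.9 in Sham. For both genes the PAN libraries lay above all others. The log2 fold change in PAN over Sham was 1.89 ± 0.39 for Hist3h2bb and 0.93 ± 0.09 for Hist3h2a, and in PAN+MP over PAN it was -3.16 ± 0.42 for Hist3h2bb and -1.03 ± 0.09 for Hist3h2a. In PAN+Pio over PAN it was -1.37 ± 0.37 for Hist3h2bb (not called) and -0.65 ± 0.09 for Hist3h2a (called). The back-to-back starts of Hist1h2aa and Hist1h2ba, 239 bases apart on chromosome 17, belong to testis variants, and Hist1h2ba was too low to test, with 1 to 6 counts in PAN+Pio libraries, 0 to 1 in PAN+MP, 5 to 11 in PAN and 1 to 5 in Sham.

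**Figure D3:**
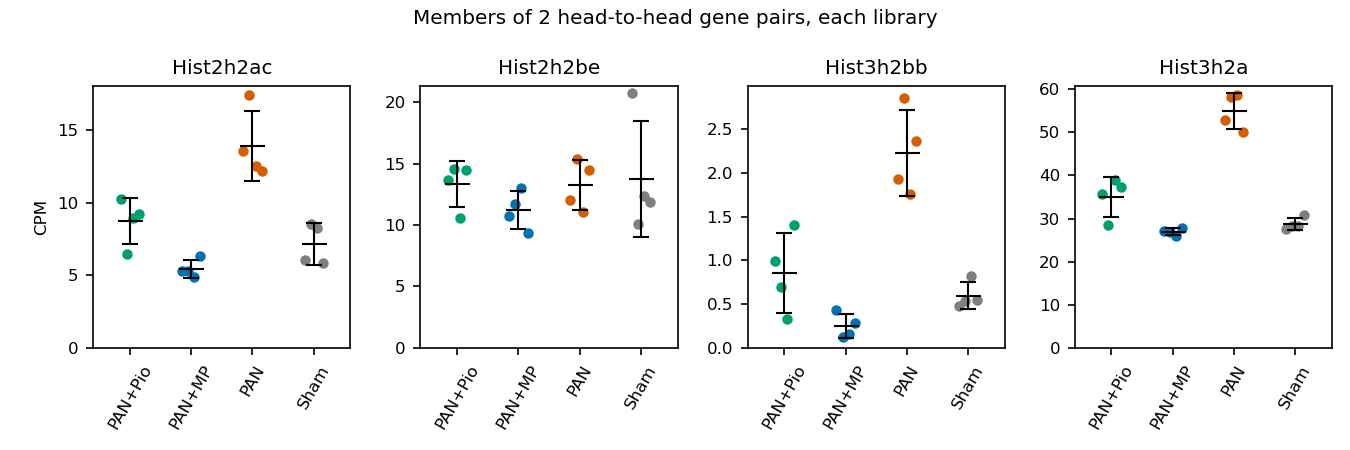
CPM (vertical axes, each from 0) of the genes of 2 back-to-back pairs in PAN+Pio, PAN+MP, PAN and Sham; points are libraries, long bars the mean and short bars 1 SD. Hist2h2be overlaps across the groups, at 13.2 ± 2.03 CPM in PAN against 13.8 ± 4.75 CPM in Sham, while its partner Hist2h2ac and both members of the Hist3 pair are highest in PAN.

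Histone H3, which carries many of the known chromatin marks on its tail, was read from Hist1h3a and Hist2h3c2. Hist2h3c2 had 33.0, 19.3, 11.8 and 37.2 CPM in PAN+Pio, 18.1, 12.6, 11.51 and 14.1 in PAN+MP, 66.5, 106, 98.8 and 71.3 in PAN and 17.0, 17.3, 24.0 and 20.7 in Sham. The lowest PAN library was above the highest of the rest, and PAN+Pio library 3 lay below every Sham library while PAN+Pio libraries 1 and 4 lay above them. It was 4.33 times as high in PAN as in Sham (log2 fold change 2.11 ± 0.29, edgeR adjusted p = 1.40e-04), with -2.61 ± 0.29 on the log2 scale in PAN+MP over PAN and -1.76 ± 0.28 in PAN+Pio over PAN.
Hist1h3a had 10.9, 5.53, 5.22 and 9.88 CPM in PAN+Pio, 4.24, 2.55, 2.35 and 1.77 in PAN+MP, 20.2, 28.1, 19.3 and 18.3 in PAN and 2.86, 4.33, 6.34 and 3.90 in Sham. PAN was above all others here too. In the edgeR fit the log2 fold changes were 2.30 ± 0.31 in PAN over Sham, -2.98 ± 0.32 in PAN+MP over PAN and -1.45 ± 0.29 in PAN+Pio over PAN (edgeR adjusted p = 0.0119). The last reached 0.0541 at most over 23 alternatives, and leaving out PAN+Pio library 2 or both tagged libraries ended the call. Hist3h3, an H3 gene of the testis in human, had 1 to 6 counts per library and was not tested.

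Histone H4 pairs with H3 in the nucleosome core. Hist1h4a, whose rise in PAN was the second largest of the 32, had 11.9, 4.91, 8.88 and 9.39 CPM in PAN+Pio, 3.73, 1.96, 2.50 and 2.77 in PAN+MP, 24.3, 29.7, 32.5 and 20.8 in PAN and 3.13, 4.07, 6.75 and 4.52 in Sham. The PAN libraries were above all others, and all PAN+Pio libraries were above all PAN+MP libraries. Its fold change in PAN over Sham was 5.79 (log2 2.53 ± 0.28, edgeR adjusted p = 2.59e-05), and its log2 fold changes with the drugs were -3.29 ± 0.29 in PAN+MP over PAN and -1.61 ± 0.27 in PAN+Pio over PAN.
Hist2h4, the H4 gene with the most reads over the 16 libraries together, had 30.1, 20.3, 23.1 and 30.1 CPM in PAN+Pio, 18.5, 14.6, 12.0 and 16.2 in PAN+MP, 62.7, 53.3, 76.9 and 45.7 in PAN and 16.2, 29.5, 18.1 and 16.4 in Sham. PAN was above all others, and Sham library 2 stood above the rest of its group. The fitted log2 fold changes came to 1.58 ± 0.21 in PAN over Sham (edgeR adjusted p = 1.45e-04), -1.96 ± 0.22 in PAN+MP over PAN and -1.20 ± 0.21 in PAN+Pio over PAN.
Hist1h4b had 21.6, 25.1, 24.5 and 21.8 CPM in PAN+Pio, 20.2, 21.9, 21.6 and 26.2 in PAN+MP, 22.3, 20.4, 33.9 and 23.0 in PAN and 21.1, 20.2, 19.7 and 23.3 in Sham. The groups overlapped, and it was not called in any comparison, with 0.24 ± 0.14 on the log2 scale in PAN over Sham (adjusted p = 0.228) in the edgeR fit. Its share of H4 reads was 19.7% to 25.7% in PAN, against 37.5% to 52.7% in Sham. Hist1h4b had more reads than Hist2h4 in every PAN+MP library and fewer in every PAN library. Without Hist1h4b the PAN mean of the H4 sum was 3.51 times the Sham mean, against 2.44 times with it. Hist2h4a had 1 count in PAN library 4 and 1 in PAN+Pio library 1 and 0 in the other libraries.

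**Figure D4:**
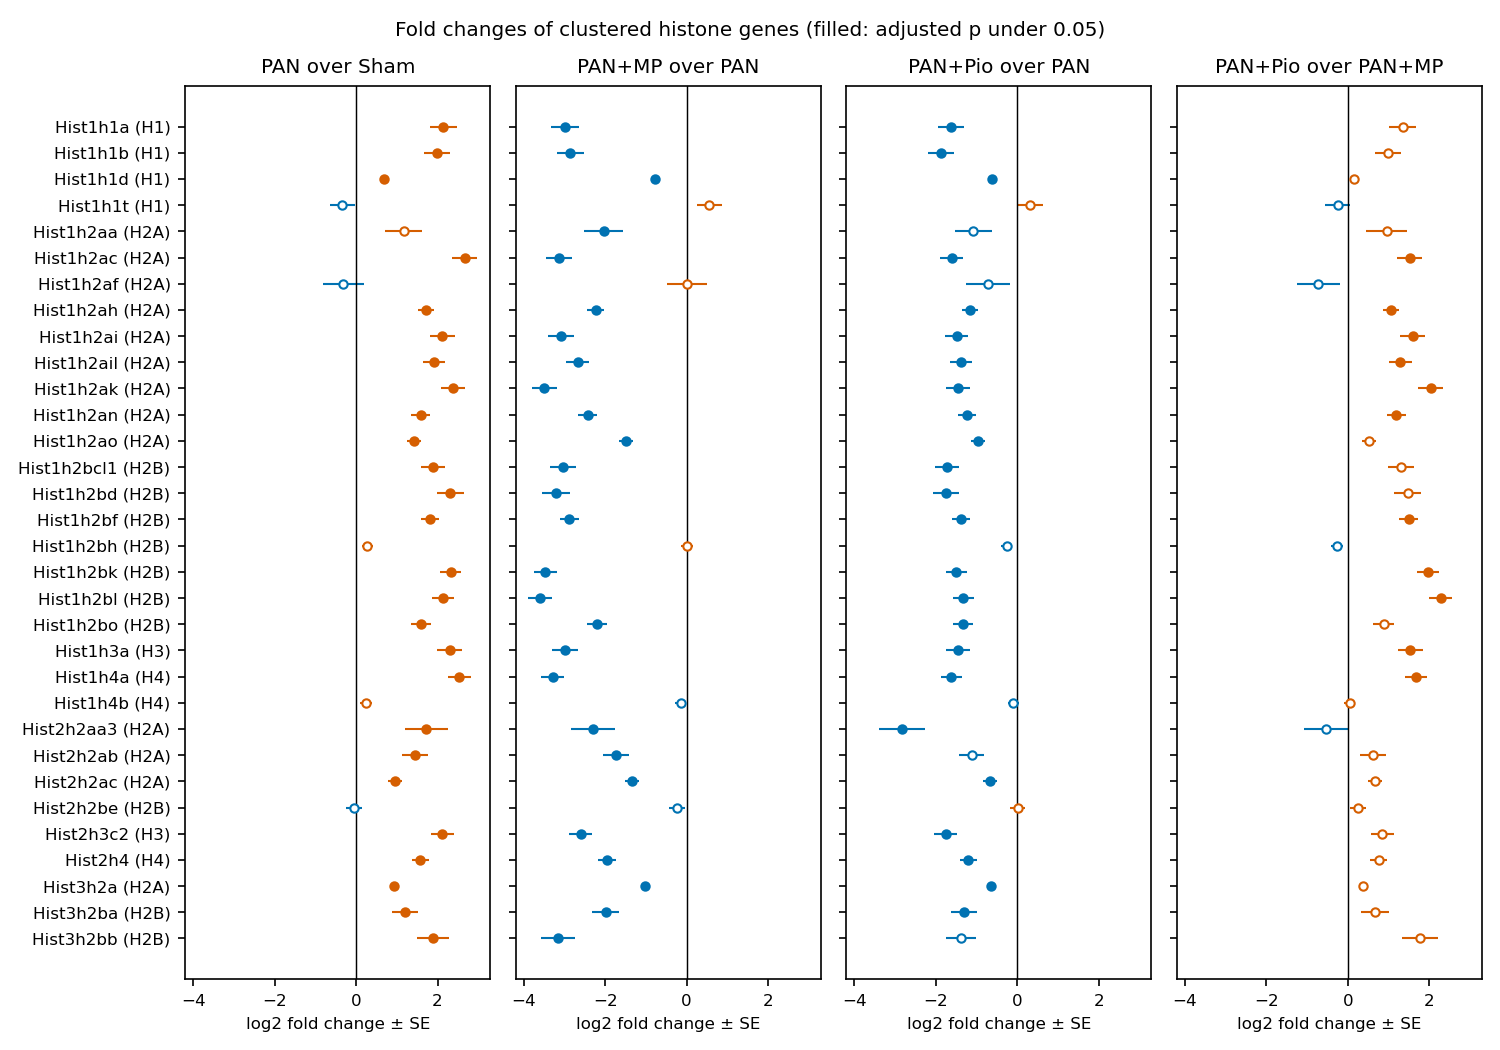
Log2 fold change with its SE (horizontal axes) of the 32 tested histone genes in PAN over Sham, PAN+MP over PAN, PAN+Pio over PAN and PAN+Pio over PAN+MP; filled points passed an adjusted p under 0.05 in edgeR, open points did not. The points lie right of 0 for 29 genes in PAN over Sham and left of 0 for 29 in PAN+MP over PAN and 30 in PAN+Pio over PAN.

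The 2 drugs were then compared with each other. In PAN+Pio against PAN+MP, 11 of the 32 genes were higher and none lower in the edgeR test, where 0.428% of all tested genes were higher and 0.205% lower. The median log2 fold change was 0.98 over the 32 genes and 0.00 over all. The 11 were Hist1h2ac, Hist1h2ah, Hist1h2ai, Hist1h2ail, Hist1h2ak and Hist1h2an of H2A, Hist1h2bf, Hist1h2bk and Hist1h2bl of H2B, Hist1h3a and Hist1h4a. The largest was Hist1h2bl at 2.29 ± 0.28 (adjusted p = 0.00659), followed by Hist1h2ak at 2.04 ± 0.30, Hist1h2bk at 1.98 ± 0.27 and Hist1h4a at 1.68 ± 0.28. For 13 genes all PAN+Pio libraries lay above all PAN+MP libraries, against 3.58% of all tested genes. At an unadjusted p under 0.05, 22 genes were higher and 0 lower, and DESeq2 called 18 higher and 0 lower. The count depended on single libraries: it was 0 without PAN+MP library 2 and 0 without PAN+MP library 3, 3 without PAN+MP library 4, 2 without PAN+Pio library 1, 4 without PAN+Pio library 3 and 4 without PAN+Pio library 4. It was 3 without both tagged libraries and 6 with the 2 groups fitted alone. With 1 library left out it was 15 at most, without PAN+Pio library 2. Over the whole table, 73 genes were higher in the reported fit, 0 without PAN+MP library 2 and 0 without PAN+MP library 3. There were 7 without PAN+MP library 4, 5 without PAN+Pio library 1, 13 without PAN+Pio library 3 and 13 without PAN+Pio library 4. Whole-table counts were 11 without both tagged libraries, 107 with the 2 groups fitted alone and 89 without PAN+Pio library 2. Of the genes with the most reads in each type over the 16 libraries together, Hist1h1d had 0.16 ± 0.10, Hist1h2ao 0.53 ± 0.17, Hist1h2bh -0.27 ± 0.14, Hist2h3c2 0.85 ± 0.28 and Hist2h4 0.76 ± 0.21, none of them called.

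The drug-treated groups were also set against Sham. In PAN+MP against Sham, 7 of the 32 genes were lower and none higher in the edgeR test, where 6.72% of all tested genes were lower and 5.98% higher. The 7 were Hist1h2ai, Hist1h2ak, Hist1h2an, Hist1h2bcl1, Hist1h2bf, Hist1h2bk and Hist1h2bl, with log2 fold changes between -1.48 for Hist1h2bl (adjusted p = 0.00726) and -0.85 for Hist1h2an. The median was -0.65 over the 32 genes and 0.01 over all, and 12 genes had all PAN+MP libraries below all Sham libraries, against 9.95% of all tested genes. At an unadjusted p under 0.05, 18 were lower and 0 higher, and DESeq2 called 12 lower and 0 higher. By DESeq2, 1793 genes of the whole table were lower, against 1147 in the edgeR fit. The edgeR count of 7 histone genes was 2 without PAN+MP library 2, 4 without PAN+MP library 3 and 3 without PAN+MP library 4. It was 3 when Sham library 1 was dropped and also 3 when Sham library 3 was. Dropping PAN library 2 together with Sham library 3 likewise left 3. Lower calls over the whole table shrank in these fits too. They numbered 520, 778 and 462 when PAN+MP library 2, 3 or 4 was dropped. With Sham library 1 or 3 dropped they numbered 338 and 743, and 925 in the fit that dropped 2 libraries. No H1, H3 or H4 gene was called, with -0.08 ± 0.10 for Hist1h1d, -0.49 ± 0.28 for Hist2h3c2 and -0.39 ± 0.21 for Hist2h4.
In PAN+Pio against Sham, 0 of the 32 genes were called by edgeR, where 5.08% of all tested genes were called and 2.09% were lower. For 1 gene all PAN+Pio libraries lay above all Sham libraries, against 7.23% of all tested genes. The median log2 fold change was 0.35 over the 32 genes and 0.00 over all, and 27 of the 32 values were positive. At an unadjusted p under 0.05, 10 were higher and 0 lower, and DESeq2 called 6 higher and 0 lower. Hist1h2ac had the highest value, 1.06 ± 0.30 (edgeR adjusted p = 0.0554), and Hist1h4a had 0.92 ± 0.27 (adjusted p = 0.0614). PAN+Pio library 2 had the lowest histone sum of its group, and without it 7 histone genes were called higher. Over the whole table, 615 of 17256 genes were then higher, against 511 of 17061 in the reported fit and 856 of 17061 by DESeq2. Without Sham library 3 the histone count was 2, where 266 genes of the whole table were higher. Without PAN library 2 and Sham library 3 it was 2, where 357 were higher. Missing the threshold does not show that the levels were equal.

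In the list of histone transcription and 3′ processing factors, 2 of 19 tested genes rose and 2 fell in PAN against Sham in the edgeR test, where 10.4% of all tested genes rose and 8.52% fell, and the list's median log2 fold change was -0.02. Slbp, the stem-loop binding protein, had 31.1, 26.5, 33.5 and 35.7 CPM in PAN+Pio, 28.8, 25.1, 25.3 and 30.1 in PAN+MP, 40.5, 50.6, 49.8 and 38.9 in PAN and 26.7, 24.9, 35.4 and 29.1 in Sham. The PAN libraries were the highest, and the other groups overlapped. Its log2 fold changes were 0.63 ± 0.13 in PAN over Sham (adjusted p = 0.00274), -0.72 ± 0.13 in PAN+MP over PAN (adjusted p = 0.00167) and -0.50 ± 0.13 in PAN+Pio over PAN (adjusted p = 0.0363). The pioglitazone call for Slbp, the only one of the list there, ended without PAN library 2 or 3 and without PAN+Pio library 1, 2 or 3, when the count was 0.
Lsm11, a part of the U7 particle that cuts histone precursors, had 40.9, 35.1, 37.9 and 30.1 CPM in PAN+Pio, 24.5, 23.4, 16.01 and 16.03 in PAN+MP, 47.6, 44.3, 44.9 and 42.2 in PAN and 16.2, 20.2, 20.7 and 11.4 in Sham. The PAN+Pio libraries lay below all PAN libraries and above all PAN+MP and Sham libraries, and PAN+MP and Sham overlapped. The log2 fold changes were 1.39 ± 0.18 in PAN over Sham (adjusted p = 9.81e-05), -1.17 ± 0.18 in PAN+MP over PAN (adjusted p = 4.66e-04) and -0.31 ± 0.17 in PAN+Pio over PAN (adjusted p = 0.419).
Npat, the coactivator of histone genes, had 61.8 ± 1.996 CPM in PAN+Pio, 63.5 ± 5.19 in PAN+MP, 59.7 ± 4.06 in PAN and 59.8 ± 1.63 in Sham (SD, n = 4 each), and its partner in the histone locus body, Casp8ap2, had 66.9 ± 10.0 CPM in PAN+Pio, 65.9 ± 6.59 in PAN+MP, 70.1 ± 6.63 in PAN and 71.5 ± 7.30 in Sham. Neither was called. Pou2f1, which binds the octamer shown above, and Hinfp, an activator of H4 genes, fell in PAN against Sham by 0.45 and 0.33 on the log2 scale (edgeR adjusted p = 0.0143 and 0.0436). Among 10 tested genes of histone RNA decay, 1 rose and 3 fell in PAN against Sham, where 10.4% of all tested genes rose and 8.52% fell. The one that rose was Eri1, a nuclease that trims the stem-loop, at 0.36 on the log2 scale. The 3 that fell were Smg1, a kinase of the decay complex, at -0.47, Zcchc11, which adds uridines to RNA ends, at -0.36 and Xrn1, an exonuclease that degrades from the 5′ end, at -0.26. That count of 4 was 2 without PAN library 3 or 4 and 2 without Sham library 1 or 2. None of the 10 was called with either drug against PAN, where 1 was lower at an unadjusted p under 0.05 with methylprednisolone and 1 higher and 1 lower with pioglitazone, and DESeq2 called 0.
Of other RNAs without a poly(A) tail, Rmrp and Terc were measured, and their summed level was 2764 to 4290.0 CPM in PAN+Pio, 1678 to 4129 in PAN+MP and 2072 to 5221 in PAN, against 2511 to 9418 in Sham. By edgeR, 0 of the 2 were called in PAN against Sham or in either drug group against PAN, with 0 at an unadjusted p under 0.05 and 0 by DESeq2.

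Histone chaperones carry new histones to DNA. Of 24 tested, 7 rose and 1 fell in PAN against Sham, 6 fell in PAN+MP against PAN and 3 fell in PAN+Pio against PAN, by edgeR. Of all tested genes 10.4% rose and 8.52% fell in PAN against Sham, 5.31% fell in PAN+MP against PAN and 2.85% fell in PAN+Pio against PAN. Asf1b, which hands over new H3 and H4 in dividing cells, had 0.924 ± 0.391 CPM in PAN+Pio, 0.469 ± 0.147 in PAN+MP, 3.12 ± 0.909 in PAN and 0.702 ± 0.279 in Sham (SD, n = 4 each). Its log2 fold change was 2.13 ± 0.35 in PAN over Sham, -2.72 ± 0.36 in PAN+MP over PAN and -1.75 ± 0.34 in PAN+Pio over PAN. Hjurp, the chaperone of the centromere histone, had 2.11 in PAN over Sham, -2.57 in PAN+MP over PAN and -1.45 in PAN+Pio over PAN, all called. Chaf1b, a subunit of the chromatin assembly factor CAF-1, had 1.06 ± 0.36 in PAN over Sham (adjusted p = 0.0541) and fell in PAN+MP over PAN (-1.40 ± 0.37, adjusted p = 0.0251). Nasp, a store of soluble histones, had 0.42 ± 0.16 in PAN over Sham (adjusted p = 0.083). The count of 8 called in PAN against Sham was 4 without PAN library 3, 5 without Sham library 1 and 5 without Sham library 2.
Replacement variants are histones made outside S phase from RNAs with a tail. Of 9 tested, 3 rose and 1 fell in PAN against Sham, 4 fell in PAN+MP against PAN and 3 fell in PAN+Pio against PAN, beside the same shares of all tested genes as for the chaperones (10.4% higher and 8.52% lower, 5.31% lower and 2.85% lower). H2afx, whose RNA can end either in a stem-loop or in a tail, had 10.9, 8.94, 10.5 and 13.7 CPM in PAN+Pio, 8.26, 7.25, 9.16 and 7.71 in PAN+MP, 21.8, 26.7, 26.9 and 19.4 in PAN and 8.59, 8.45, 10.3 and 10.7 in Sham. The PAN libraries were above all others. On the log2 scale the fold changes were 1.32 ± 0.15 in PAN over Sham (edgeR adjusted p = 3.20e-05), -1.55 ± 0.15 in PAN+MP over PAN and -1.10 ± 0.15 in PAN+Pio over PAN. H2afz rose by 0.60 on the log2 scale in PAN against Sham, and Cenpa, the H3 of centromeres, by 2.46. H3f3b, a replacement H3, had 248 ± 31.6 CPM in PAN and 252 ± 41.2 CPM in Sham (SD, n = 4 each; log2 fold change -0.03 ± 0.12), and H1f0, the linker histone of resting cells, had -0.30 ± 0.12 (edgeR adjusted p = 0.0891). Leaving out PAN library 2 or 3 or PAN+MP library 2 or 3 gave 2 calls for methylprednisolone in place of 4. Leaving out PAN library 2 or 3 or PAN+Pio library 1, 2 or 3 gave 1 call for pioglitazone in place of 3.

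Most genes of the S-phase list rose in PAN as well. Of 29 tested, 24 rose and none fell in PAN against Sham, 21 fell in PAN+MP against PAN and 10 fell in PAN+Pio against PAN, against 10.4% of all tested genes higher in the first comparison and 5.31% and 2.85% lower in the other two. The list's median log2 fold change was 0.91, -0.97 and -0.69 in these comparisons. No S-phase gene was called in the other direction, and none was in that direction at an unadjusted p under 0.05 or by DESeq2. Ccne2, a cyclin of S-phase entry that is tied to Npat activity, had 5.82 ± 1.76 CPM in PAN+Pio, 3.70 ± 0.892 in PAN+MP, 12.8 ± 2.001 in PAN and 3.61 ± 0.935 in Sham (SD, n = 4 each). Ccne1, its paralog, had log2 fold changes of 2.59 ± 0.30 in PAN over Sham (edgeR adjusted p = 4.25e-05), -1.83 ± 0.28 in PAN+MP over PAN and -1.96 ± 0.29 in PAN+Pio over PAN. Ccna2, the cyclin of S phase and G2, had 2.36 ± 0.29 in PAN over Sham, -3.22 ± 0.30 in PAN+MP over PAN and -1.72 ± 0.28 in PAN+Pio over PAN, all called. The sliding clamp gene Pcna rose by 0.41 in PAN against Sham (adjusted p = 0.0287) and fell in PAN+MP against PAN (-0.59 ± 0.12), with -0.32 ± 0.12 in PAN+Pio over PAN (adjusted p = 0.178). The helicase gene Mcm2 was not called, at 0.47 ± 0.21 in PAN over Sham (adjusted p = 0.126). The pioglitazone count of 10 was 5 without PAN library 2 and 4 without PAN+Pio library 2.
All 15 genes of the mitosis list rose in PAN against Sham and fell in both drug groups against PAN, none the other way. Of all tested genes, 10.4% rose in PAN against Sham, 5.31% fell in PAN+MP against PAN and 2.85% fell in PAN+Pio against PAN. At an unadjusted p under 0.05 and by DESeq2 the mitosis counts were also 15 in each of these comparisons, with 0 the other way. Mki67 had 43.3, 25.2, 43.3 and 38.0 CPM in PAN+Pio, 18.8, 11.2, 10.8 and 8.89 in PAN+MP, 118, 135, 82.8 and 81.0 in PAN and 19.9, 19.1, 38.4 and 21.9 in Sham. The PAN libraries were above all others, and PAN+MP below PAN+Pio. In the edgeR fit the log2 fold changes were 2.07 ± 0.28 in PAN over Sham, -3.07 ± 0.29 in PAN+MP over PAN and -1.48 ± 0.27 in PAN+Pio over PAN. In PAN+Pio against PAN+MP, 7 of the 15 were higher, against 0.428% of all tested genes. Mki67 was among them at 1.59 ± 0.28 (edgeR adjusted p = 0.0207). That count of 7 was 0 without PAN+MP library 2 or 3 and 1 without PAN+MP library 4 or PAN+Pio library 1, 3 or 4. Over the whole table, 0 genes were called without PAN+MP library 2 or 3. Genes called higher numbered 7 without PAN+MP library 4, and 5, 13 and 13 without PAN+Pio library 1, 3 and 4.

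Markers of other cell types moved with the groups as well. The marker counts below stand beside these shares of all tested genes: 10.4% rose and 8.52% fell in PAN against Sham. Against PAN, 5.31% fell in PAN+MP and 2.85% fell in PAN+Pio. The macrophage genes Cd68, Csf1r, C1qa, C1qb and Cd163 summed to 42.4 to 58.4 CPM in PAN+Pio, 35.0 to 69.9 in PAN+MP, 82.8 to 108 in PAN and 49.8 to 73.5 in Sham, with no overlap between PAN and the rest. Of the 4 that could be tested, Csf1r rose in PAN against Sham, and Csf1r, C1qa and C1qb fell in PAN+MP and in PAN+Pio against PAN by edgeR. The first count was 0 without PAN library 2, Sham library 1 or Sham library 2. The count with methylprednisolone was 0 without PAN library 2 or PAN+MP library 3, and 1 without PAN library 1 or PAN+MP library 2. The count with pioglitazone was 0 without PAN library 1 or PAN+Pio library 2, and 1 without PAN library 2 or PAN+Pio library 3 or 4. The mesangial markers Pdgfrb, Itga8, Gata3 and Des summed to 1260.0 to 1436 CPM in PAN+Pio, 1245 to 1394 in PAN+MP, 1842 to 2902 in PAN and 1180.0 to 1840.0 in Sham. Of these 4, Des rose in PAN against Sham (log2 fold change 2.55 ± 0.21), a gene that is also known to rise in injured podocytes, and no other was called there. Des and Itga8, an integrin subunit of mesangial cells, fell in both drug groups against PAN by edgeR. For Des the log2 fold change was -1.49 ± 0.21 in PAN+MP over PAN (adjusted p = 1.78e-04) and -1.49 ± 0.21 in PAN+Pio over PAN (adjusted p = 0.0018), and for Itga8 it was -0.47 ± 0.13 (adjusted p = 0.0355) and -0.50 ± 0.13 (adjusted p = 0.0472). The count of 2 became 1 with methylprednisolone without PAN library 1, 2 or 4 or PAN+MP library 1, 2 or 3, and 1 with pioglitazone without any one of the PAN libraries, without PAN+Pio library 1, 2 or 4, or without PAN library 2 and Sham library 3 together. The count of 1 in PAN against Sham was 2 without Sham library 3. The 5 endothelial markers summed to 3357 to 3928 CPM in PAN+Pio, 3600.0 to 3722 in PAN+MP, 2920.0 to 4592 in PAN and 4372 to 6031 in Sham. Of these markers, 4 fell in PAN against Sham, or 2 without PAN library 1, 3 or 4 or Sham library 1, 2 or 3. With no filter, or with the 2 groups fitted alone, 2 fell as well. Over the whole table, 1454 genes fell in the reported fit and 848 to 1424 in these leave-out fits. With no filter 1069 fell, and with the 2 groups fitted alone 775. Sums of the 6 lymphocyte genes were low, 6.23 to 9.54 CPM in PAN+Pio, 5.38 to 7.36 in PAN+MP, 4.26 to 8.75 in PAN and 4.91 to 7.04 in Sham. Globin RNA had been removed from the libraries, and Hba1, which encodes an alpha chain of haemoglobin, averaged 1902 ± 673 CPM in PAN+Pio, 1578 ± 176 in PAN+MP, 1239 ± 319 in PAN and 1746 ± 421 in Sham. Its log2 fold change was -0.50 ± 0.25 in PAN over Sham (edgeR adjusted p = 0.179). Tfrc, the transferrin receptor, which erythroid precursors and dividing cells use to take up iron, averaged 25.6 ± 4.67 CPM in PAN+Pio, 23.6 ± 2.60 in PAN+MP, 29.7 ± 7.83 in PAN and 15.7 ± 2.93 in Sham. It rose in PAN against Sham (log2 fold change 0.92 ± 0.19, edgeR adjusted p = 0.0028) and was not called in either drug group against PAN (adjusted p = 0.335 with methylprednisolone and 0.652 with pioglitazone). The part of these cell types in the histone differences was not tested, and which cells held the histone RNAs cannot be told apart in these libraries. Without PAN library 2 and Sham library 3, 24 histone genes rose in PAN against Sham, 27 fell in PAN+MP against PAN and 22 fell in PAN+Pio against PAN.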

How the data were processed

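Total RNA (350 ng) from isolated glomeruli of 16 rats was made into directional libraries after removal of ribosomal and globin RNA, per the labels' protocols. The submitters' processing notes name cutadapt, STAR, HTSeq 0.6.1p1, DESeq2 and the genome build Rnor_6.0. Whether strand was used in counting, and how reads of near-identical copies were assigned, is not stated there. The authors deposited one table with raw counts per gene and library, which were used here. The table also has 16 columns of normalized signal per library and the authors' group means of that signal, not used here, and, per the file headers, the log2 fold change and p-value of their own comparisons, used only where the authors' deposited table is named.

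Genes were filtered with filterByExpr (minimum count 10), which kept 17061, scaled by TMM and tested in 1 model with 4 group terms by edgeR 4.0.16's quasi-likelihood test (limma 3.58.1, R 4.3.3), with Benjamini-Hochberg adjustment over all genes and a threshold of 0.05. The biological coefficient of variation was 19.4% with 12 residual degrees of freedom. Fold changes are log2 of the first group over the second, with SE. Sums of CPM per histone type carry no test. DESeq2 1.42.0, other scaling, other filters, fits of 2 groups alone and left-out libraries made up 23 alternatives. For any 1 comparison, some of these left out only a library of a group not compared. The edgeR fit was also run on simulated counts, with results not reported here. Column names match samples by group only, so libraries within a group have no replicate number. Depth was 22802109 to 32571877 counts per library, and counting alone limits genes of few counts. Promoter windows came from RefSeq's GRCr8 tables, matched by symbol or synonym, with Python 3.11.15.

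Members and gene lists were chosen with earlier results of these data known. The gene of most reads in each type, over the 16 libraries together, was described in full. So were up to 10 called members with the largest fold change in PAN against Sham and in each drug group against PAN. Any other tested member could be named. Of the other lists, up to 3 called genes per direction with the smallest adjusted p were named beside a fixed set that includes Slbp, Npat and Pcna. Some marker genes of other cell types are not reported here.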

Additional observations from a re-analysis of the deposited data

Results flagged for a closer look

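Within groups of 4 libraries, 148 sets of values of the histone genes and their sums were examined for 1 library far from the other three, by Dixon's criterion. That held for 8, where chance alone gives about 1 in 20, or 7.4. Hist1h1b had 10.99 CPM in Sham library 3, against 5.13 to 5.69 in the other Sham libraries, and Hist1h2an had 6.82 CPM in the same library, against 4.93 to 5.13. Hist2h4 had 29.5 CPM in Sham library 2, against 16.2 to 18.1 in the others of its group. The summed H2A level was 98.98 CPM in Sham library 1, against 118.8 to 122.2. Hist1h2ah had 27.88 CPM in PAN library 2, against 20.2 to 20.8 in the other PAN libraries. Hist2h2aa3 had 10.11 CPM in PAN+MP library 2, against 3.297 to 4.102, and the summed H1 level was 77.47 CPM in PAN+MP library 1, against 65.6 to 67.5. Hist1h2bk had 5.832 CPM in PAN+Pio library 2, against 11.49 to 12.61 in the other PAN+Pio libraries.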

How the results depend on the processing

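No paired analysis was possible because the columns of the table carry no replicate numbers. Of 538 alternative values of counts and summed levels, 480 stayed close to those reported and 58 moved. A count was compared by size only and a sum carries no call, so these values do not test the direction of a call. Counts of histone genes called in PAN against Sham, PAN+MP against PAN and PAN+Pio against PAN stayed within 1.5 times under every alternative, at 24 to 27, 26 to 27 and 21 to 24 with 1 library left out. The comparisons of smaller size did not. With DESeq2 the histone counts were 12 in PAN+MP against Sham, where edgeR called 7. They were 6 in PAN+Pio against Sham, where edgeR called 0, and 18 between PAN+Pio and PAN+MP, where edgeR called 11. With 1 library left out they were 2 to 7, 0 to 7 and 0 to 15, and without PAN library 2 and Sham library 3, chosen after seeing the data, 3 for PAN+MP against Sham and 2 for PAN+Pio against Sham. For PAN+Pio against PAN+MP the count was 6 with these groups fitted alone and 3 without both tagged libraries. Without PAN+MP library 2 or 3, 0 genes of the whole table were called in that comparison. In PAN+MP against Sham, lower calls over the whole table moved as well. They were 1147 in the reported fit, 338 to 1422 with 1 library left out and 1793 by DESeq2.

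In the other gene lists together, PAN+Pio against PAN had 38 calls and 21 to 35 with 1 library left out. PAN+MP against Sham had 19, with 2 to 17 in the same way and 11 without PAN library 2 and Sham library 3. PAN+Pio against Sham had 9, with 3 to 13, 19 by DESeq2 and 5 without the tagged libraries. PAN+Pio against PAN+MP had 9, with 0 to 11, 18 by DESeq2 and 1 without the tagged libraries. Chaperones called in PAN+Pio against PAN numbered 3 in edgeR and 5 in DESeq2.

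Leaving the gene of most reads over the 16 libraries together out of a type's sum moved the log2 ratio of group means. For H1 without Hist1h1d it was 1.99 in PAN over Sham, -2.74 in PAN+MP over PAN, -1.68 in PAN+Pio over PAN, -0.75 in PAN+MP over Sham, 0.31 in PAN+Pio over Sham and 1.06 in PAN+Pio over PAN+MP. For H2B without Hist1h2bh it was 1.52, -2.23, -1.18, -0.71, 0.33 and 1.04 in these 6 comparisons; with Hist1h2bh the PAN+MP over Sham value was 0.13 and the PAN+Pio over PAN+MP value -0.04, so that both had the other sign. For H4 without Hist2h4 it was 1.01 in PAN over Sham, -1.04 in PAN+MP over PAN and -0.69 in PAN+Pio over PAN, and for H3 without Hist2h3c2 1.497 in PAN+Pio over PAN+MP. Depth limits genes of few counts such as Hist1h2af and Hist1h2aa, and the counting of near-identical copies was not tested.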
